A study of Mus musculus with 18 samples.

Results

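Interferons induce a shared set of antiviral genes, and 48 such genes were followed by name through the total RNA libraries of CD4+ T cells, out of 23219 features in the table. They comprised 29 antiviral effectors and sensors, 8 guanylate-binding proteins (GBPs), 7 immunity-related GTPases (IRGs) and 4 Schlafen genes. Ifi47 was placed with the IRGs, because it encodes a protein of that family. The cells came from lymph nodes and spleen of C57BL6 mice and formed 3 groups of 3 libraries each: naive cells, and activated cells labelled Hopx-low or Hopx-high after their level of Hopx, an atypical homeodomain cofactor. The labels give every group, naive included, the same treatment, an intraperitoneal injection of chimeric antibodies that carry antigen to dendritic cells, 5 days before collection. The study compared T cells activated in this way with naive ones. No age, sex, genotype beyond the strain, sorting gate or pooling of animals is stated, nor whether libraries came from separate mice. The p-values thus reflect the spread among the libraries, which may be technical in part.

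Type I interferons signal through the receptor chains encoded by Ifnar1 and Ifnar2 and the kinases Jak1 and Tyk2 to a complex that contains Stat2 and Irf9 and binds interferon-stimulated response elements (ISREs). Interferon gamma signals through Ifngr1 and Ifngr2, Jak1 and Jak2 to factors that bind gamma-activated sites (GAS). Resting lymphocytes keep low levels of many of these genes without infection, a state known as tonic interferon signalling. GBP and IRG proteins are large GTPases that attack membranes around intracellular pathogens, and several Schlafen proteins restrain proliferation or translation.

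A level is the number of bases per megabase of a library's coverage, as the deposited signal was read here, listed in the order replicate 1, 2, 3; it compares 1 gene across libraries, not genes of different length. Fold changes are log2 differences of level + 1 with their standard error, a scale on which changes of scarce genes are understated, and a gene was called at an adjusted p below 0.05 (limma). Libraries held 105 to 329 megabases, and on that reading a level of 1 was worth about 0.945 to 2.94 reads, so that low levels are imprecise. Hopx-low replicate 1 and Hopx-high replicate 3 were the shallowest and were richest in Lars2, at 18.0% and 18.9% of bases against 0.525% to 6.55% in the others. Replicate 3 of each group carried Xist and no Ddx3y, and replicates 1 and 2 the reverse, so replicate 3 came from other animals than they did. Whether replicates 1 and 2 came from separate mice is not known. Hopx itself stood at 1.76, 0 and 1.15 in naive, 5.90, 7.49 and 7.59 in Hopx-low and 34.2, 26.1 and 23.1 in Hopx-high libraries, in the order of the labels. The CD4+ T cell genes Cd4, Cd3d, Cd3e and Lck were abundant in every library, while Cd3g fell in both activated groups (-0.88 ± 0.26, adjusted p = 0.038 in Hopx-low; -0.85 ± 0.26, adjusted p = 0.021 in Hopx-high). With Cd28, these 6 genes summed to 4238 to 4984 in naive, 3896 to 4662 in Hopx-low and 3678 to 4730 in Hopx-high libraries. The summed level of 6 B cell markers was 9.69 to 44.6 in naive and 9.0 to 17.1 in Hopx-low libraries but 55.0 to 89.1 in Hopx-high ones, and that of 6 monocyte and macrophage markers 10.3 to 32.8, 8.84 to 26.2 and 40.5 to 94.8. The NK cell list of 5 genes reached 14.3 to 16.2 in Hopx-high libraries, mostly from Nkg7. Klrb1c was at 0 in every naive library, at 0, 0.461 and 0 in Hopx-low and at 1.32, 3.65 and 0 in Hopx-high ones. Gzma stood at 0.597, 3.34 and 0.564 in naive, 0 in every Hopx-low and 0.972, 0.632 and 1.57 in Hopx-high libraries. Ncr1 was at 0 in 8 of 9 libraries and Klra8 in all. The CD8 genes Cd8a and Cd8b1 summed to 126 to 149 in naive libraries, 52.6 to 84.0 in Hopx-low and 39.3 to 45.2 in Hopx-high ones. The 7 dendritic cell markers summed to at most 6.40, with Xcr1 at 0 throughout, and the 3 neutrophil markers to at most 5.96. The part of such cells in the results below was not tested, nor can fewer expressing cells be told apart from less RNA per cell in bulk samples.

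Many interferon-stimulated genes and immune GTPases fell in activated cells, and none of those called was higher than in naive cells. Of all 11320 tested features, 8.39% differed from naive cells in the Hopx-low comparison and 23.6% in the Hopx-high one. In Hopx-low cells 18 of the 47 tested genes fell, where 3.64% of features did, and 0 rose, where 4.75% did. In Hopx-high cells 34 of 47 fell, against 15.1% of all features, and 0 rose, against 8.41%. Over all features the Hopx-high split was 952 higher to 1714 lower, and it turned to 1278 to 1095 with upper-quartile scaling. Of the 47 genes, 29 were then called lower and 1, Ifi27l2a, higher. The median fold change of the 47 genes was -0.92 (Hopx-low) and -1.18 (Hopx-high), against -0.16 and -0.29 for all features. Upper-quartile scaling moved the latter to -0.11 in both comparisons, and the genes' medians relative to it were then -0.75 and -0.88, against -0.75 and -0.90 before. In 38 of 47 genes all 3 Hopx-low libraries were below all naive ones, against 18.2% of features, and in 38 all Hopx-high libraries were, against 26% of features. At an unadjusted p below 0.05, 35 genes were lower and 0 higher in Hopx-low cells, where 14.1% of all features were lower and 8.97% higher. At the same threshold 40 were lower and 1 higher, Ifi27l2a, in Hopx-high cells, against 25.6% and 11.7% of features. Both comparisons share the naive libraries, so they are not independent of each other. The Hopx-low count rested in part on 1 library: without Hopx-low replicate 1 the fall was called for 10 genes. With only replicates 1 and 2 of each group the counts were 11 and 20. The 48th gene, Ifi44, had coverage only in naive replicate 2 (0.903) and was not tested.

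**Figure D1:**
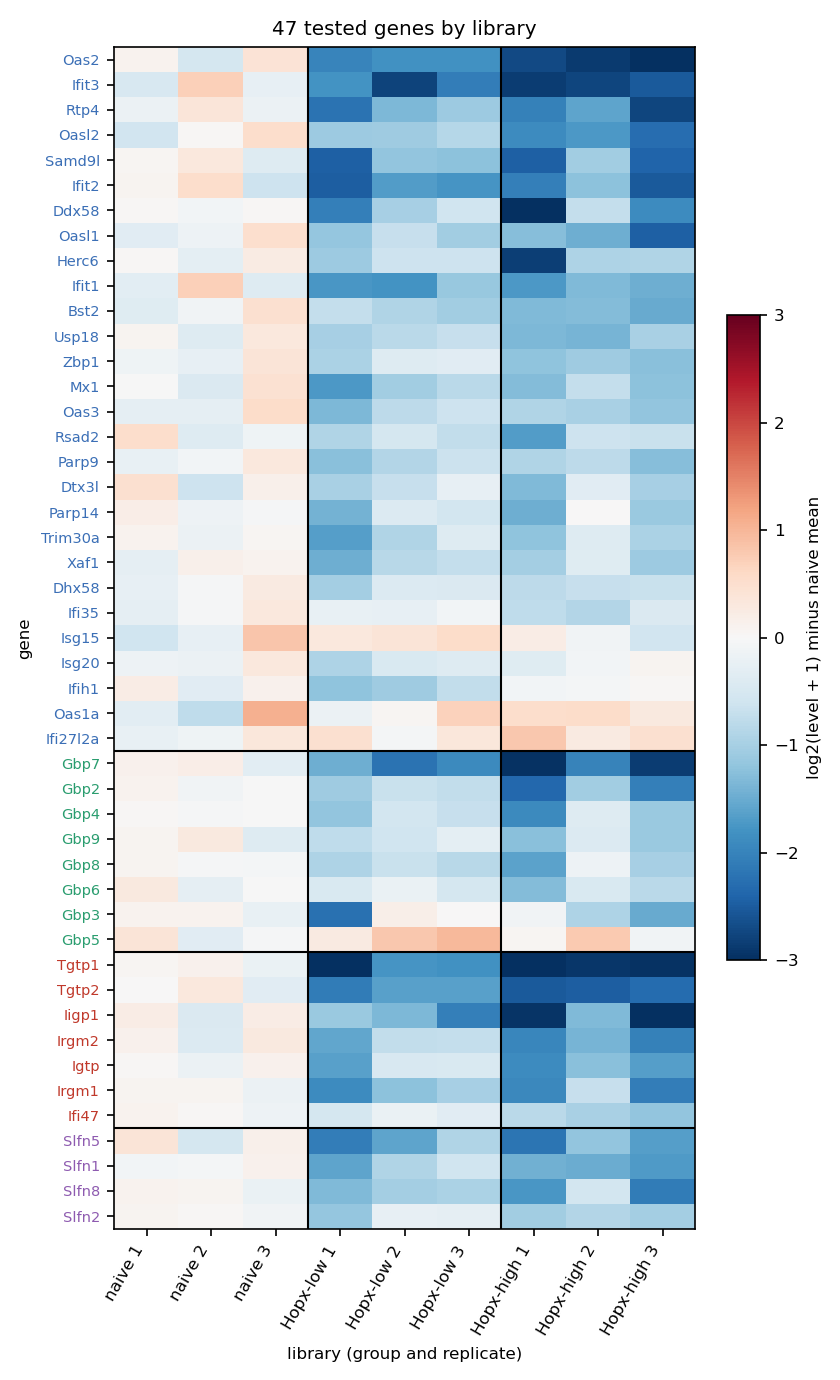
Each row is 1 of the 47 tested genes and each column 1 library; colour gives log2(level + 1) minus the mean of the 3 naive libraries, and black lines divide the gene classes and the groups. Blue fills most rows in the 6 activated libraries, with Isg15, Oas1a, Ifi27l2a and Gbp5 as rows that do not follow.

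The 3 Ifit genes, which encode RNA-binding proteins that block translation of viral messages, fell in both activated groups. Ifit2 stood at 46.98, 63.4 and 28.4 in naive, 7.07, 13.2 and 12.2 in Hopx-low and 9.91, 18.1 and 6.87 in Hopx-high libraries. Ifit3 stood at 16.6, 39.4 and 19.7 in naive, 6.11, 2.60 and 4.81 in Hopx-low and 2.38, 2.61 and 3.30 in Hopx-high libraries. No activated library reached the lowest naive library for either gene. Ifit2 changed by -1.97 ± 0.38 in Hopx-low (adjusted p = 0.0015) and -1.93 ± 0.38 in Hopx-high cells (adjusted p = 0.00081), and Ifit3 by -2.21 ± 0.43 (adjusted p = 0.0016) and -2.71 ± 0.43 (adjusted p = 7.5e-05). Ifit1, with 11.1, 23.5 and 10.4 in naive, 3.44, 3.35 and 5.77 in Hopx-low and 3.57, 4.99 and 4.44 in Hopx-high libraries, fell by about as much in both groups (-1.56 ± 0.43, adjusted p = 0.024; -1.5 ± 0.43, adjusted p = 0.014). Ifit1 lost its call in Hopx-low cells without naive replicate 1 or 2 or Hopx-low replicate 1 or 2 (adjusted p = 0.051 to 0.16), and in Hopx-high cells without naive replicate 2 (adjusted p = 0.1). These 3 genes lie in a cluster on chromosome 19, 34550550 to 34650009 in GRCm38.p6, the assembly behind all positions here. The Ifit1 locus overlaps that of Ifit1bl1, so reads there cannot be told apart. The stretches before a RefSeq start of Ifit3 and of Ifit1 are shown because each holds a pair of ISRE-like matches, here in capitals. The letters searched were GAAA, any 2 bases and GAAA again, which on the other strand read TTTC, any 2 bases and TTTC. The GAS-like letters shown further down were TTC, any 3 bases and GAA.
Ifit3: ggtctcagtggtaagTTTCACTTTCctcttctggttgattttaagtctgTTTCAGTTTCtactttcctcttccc
Ifit1: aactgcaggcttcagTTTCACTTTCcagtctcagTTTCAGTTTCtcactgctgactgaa
The Ifit3 stretch is chr19:34583358-34583431, plus strand, and that of Ifit1 chr19:34640770-34640828, plus strand; sequences are from the RefSeq table. The Ifit3 stretch lies before the start that its promoter window uses, but inside the Ifit3 locus, which begins at 34583119.

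The oligoadenylate synthetase genes, whose products sense double-stranded RNA, did not all fall. Oas2 stood at 53.5, 34.2 and 65.6 in naive, 11.8, 13.2 and 13.3 in Hopx-low and 6.67, 5.90 and 4.60 in Hopx-high libraries. Its 3 groups did not overlap, and it changed by -1.87 ± 0.34 in Hopx-low (adjusted p = 0.00064) and -2.92 ± 0.34 in Hopx-high cells (adjusted p = 8e-07), the largest fall among the 29 effectors and sensors in Hopx-high cells. Oas3, at 115, 115 and 206 in naive, 54.2, 81.0 and 90.2 in Hopx-low and 74.5, 70.9 and 61.4 in Hopx-high libraries, fell by similar amounts in both (-0.92 ± 0.25, adjusted p = 0.021; -1.01 ± 0.25, adjusted p = 0.0046). Oasl1, whose mouse product represses translation of Irf7, stood at 36.5, 41.4 and 65.8 in naive, 20.1, 28.1 and 22.0 in Hopx-low and 18.4, 16.1 and 7.68 in Hopx-high libraries. The related synthetase gene Oasl2 stood at 18.2, 28.0 and 40.2 in naive, 12.2, 12.6 and 14.7 in Hopx-low and 6.62, 7.67 and 4.78 in Hopx-high libraries. Both were called in Hopx-high cells alone (-1.74 ± 0.34, adjusted p = 0.00061 for Oasl1; -1.97 ± 0.36, adjusted p = 0.00035 for Oasl2), while the Hopx-low values were -0.97 ± 0.34, adjusted p = 0.08 and -1.01 ± 0.36, adjusted p = 0.093. The difference between Hopx-high and Hopx-low was not called for Oas2 (-1.05 ± 0.34, adjusted p = 0.13) or Oasl2 (-0.96 ± 0.36, adjusted p = 0.22). Oas3 lost its call in Hopx-low cells without naive replicate 3 (adjusted p = 0.15) or Hopx-low replicate 1 (adjusted p = 0.1), and in Hopx-high cells without naive replicate 3 (adjusted p = 0.053). Oas1a was called in neither comparison: its levels were 20.8, 14.9 and 56.0 in naive, 23.1, 27.0 and 42.4 in Hopx-low and 37.9, 38.5 and 31.9 in Hopx-high libraries, with naive libraries spread over the range of all others (0.19 ± 0.37, adjusted p = 0.8; 0.45 ± 0.37, adjusted p = 0.38). Without naive replicate 3, its highest naive library, Oas1a was called higher in Hopx-high cells (0.99, adjusted p = 0.049). Oas1a has near-identical copies, Oas1g among them, so its value is uncertain.

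Of the 4 tested sensors of viral nucleic acid, 3 fell in Hopx-high cells and 0 in Hopx-low ones, against 15.1% and 3.64% of all features. Every Hopx-low library was nevertheless below every naive one for all 4, against 18.2% of features. Zbp1, which binds left-handed nucleic acids and can trigger cell death, stood at 135, 124 and 191 in naive, 75.3, 113 and 117 in Hopx-low and 63.1, 69.3 and 60.8 in Hopx-high libraries, and fell in Hopx-high cells (-1.18 ± 0.22, adjusted p = 0.00046; -0.56 ± 0.22, adjusted p = 0.13 in Hopx-low). Ddx58, which encodes the RNA helicase RIG-I, stood at 51.7, 47.6 and 51.8 in naive, 11.4, 24.6 and 32.8 in Hopx-low and 4.66, 30.3 and 12.9 in Hopx-high libraries. It fell in Hopx-high cells (-1.93 ± 0.47, adjusted p = 0.0062; -1.22 ± 0.47, adjusted p = 0.12 in Hopx-low), although Hopx-high replicate 2 was well above the other libraries of its group. Dhx58, which encodes the RIG-I relative LGP2, stood at 55.7, 64.4 and 80.5 in naive, 31.9, 49.4 and 48.4 in Hopx-low and 37.7, 40.7 and 41.2 in Hopx-high libraries and also fell there (-0.72 ± 0.25, adjusted p = 0.04; -0.63 ± 0.25, adjusted p = 0.13 in Hopx-low), while Hopx-high cells did not pass the test against Hopx-low ones (-0.09 ± 0.25, adjusted p = 0.93). That call was lost with upper-quartile scaling (adjusted p = 0.11) and without any 1 of the 6 libraries compared other than naive replicate 1 (adjusted p = 0.052 to 0.17). Ifih1, the gene of the helicase MDA5, took another course: it stood at 20.7, 13.7 and 19.6 in naive, 7.15, 7.93 and 10.3 in Hopx-low and 16.7, 16.9 and 18.1 in Hopx-high libraries, so that the Hopx-low libraries lay below every Hopx-high one. Neither change from naive was called (-1.0 ± 0.34, adjusted p = 0.07 in Hopx-low; -0.04 ± 0.34, adjusted p = 0.94 in Hopx-high), nor was the difference of Hopx-high from Hopx-low (0.96 ± 0.34, adjusted p = 0.18).

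Isg15 and the enzymes around it did not move together. Isg15 encodes a ubiquitin-like modifier that is attached to proteins after interferon. It stood at 21.2, 27.0 and 58.7 in naive, 40.6, 42.4 and 47.9 in Hopx-low and 37.6, 29.9 and 21.6 in Hopx-high libraries, groups that overlapped (0.42 ± 0.32, adjusted p = 0.47; -0.15 ± 0.32, adjusted p = 0.76). Its promoter is shown because it holds 3 overlapping ISRE-like matches, in capitals.
Isg15: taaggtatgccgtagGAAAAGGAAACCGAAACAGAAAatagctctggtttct
Oas1a: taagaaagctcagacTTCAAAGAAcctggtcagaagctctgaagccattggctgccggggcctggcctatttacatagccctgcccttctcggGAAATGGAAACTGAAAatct
The Isg15 stretch is chr4:156200860-156200911, minus strand. The Oas1a stretch, chr5:120907526-120907638, minus strand, is given for comparison, since that gene was not called lower either; its capitals mark a GAS-like match and a pair of overlapping ISRE-like matches. Usp18, whose protease removes Isg15 and also damps the type I receptor, stood at 44.7, 32.2 and 52.8 in naive, 20.6, 24.0 and 25.8 in Hopx-low and 15.9, 15.4 and 20.9 in Hopx-high libraries and fell in Hopx-high cells (-1.25 ± 0.29, adjusted p = 0.0031; -0.83 ± 0.29, adjusted p = 0.081 in Hopx-low). Herc6, the main ligase for Isg15 in the mouse, fell there as well (-1.55 ± 0.45, adjusted p = 0.017), from 18.3 ± 3.50 (mean ± SD, n = 3) to 6.67 ± 4.31, with Hopx-high replicate 1 at 1.69. Parp9 and Dtx3l encode partners in a complex that joins ADP-ribosylation to ubiquitination, and their loci overlap on chromosome 16 at 35938470 to 35939027, so reads there cannot be told apart. Parp9 stood at 43.2, 47.9 and 63.4 in naive, 20.7, 27.2 and 31.9 in Hopx-low and 26.8, 29.3 and 20.5 in Hopx-high libraries, and fell in both groups (-0.93 ± 0.28, adjusted p = 0.039; -0.98 ± 0.28, adjusted p = 0.013). Dtx3l fell in Hopx-high cells (-0.89 ± 0.29, adjusted p = 0.029), and the neighbouring Parp14, an ADP-ribosyltransferase gene, did not pass the test (-0.85 ± 0.31, adjusted p = 0.053), with Hopx-high replicate 2 at 104 against 37.3 and 47.4 in the others; without that library it was called (-1.28, adjusted p = 0.00094). The calls of Herc6, Parp9 and Dtx3l rested on single libraries, whereas that of Usp18 was lost only with replicates 1 and 2 alone (adjusted p = 0.063). Herc6 lost its call without naive replicate 1 or 3 or Hopx-high replicate 1 (adjusted p = 0.057 to 0.11). Parp9 lost the Hopx-low call without any 1 of the 6 libraries compared (adjusted p = 0.05 to 0.17) and the Hopx-high call without naive replicate 3 or Hopx-high replicate 3 (adjusted p = 0.081 and 0.065). Dtx3l lost its call with upper-quartile scaling (adjusted p = 0.072) and without naive replicate 1 or 3 or Hopx-high replicate 1 or 3 (adjusted p = 0.098 to 0.17).

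Among the remaining effectors, Rtp4, Samd9l and Bst2 fell in both groups. Rtp4, an interferon-induced chaperone gene of receptor transport, stood at 40.6, 59.0 and 40.2 in naive, 9.14, 17.4 and 21.1 in Hopx-low and 10.5, 14.6 and 5.99 in Hopx-high libraries (-1.55 ± 0.36, adjusted p = 0.0079; -2.12 ± 0.36, adjusted p = 0.00017). Its locus overlaps that of Masp1, and reads in the overlap cannot be told apart. Samd9l, which encodes a translational inhibitor, stood at 63.5, 75.7 and 46.4 in naive, 10.3, 26.0 and 25.1 in Hopx-low and 10.3, 29.0 and 10.7 in Hopx-high libraries (-1.63 ± 0.38, adjusted p = 0.0082; -1.96 ± 0.38, adjusted p = 0.00071). For both, every activated library was below every naive one. Bst2 encodes tetherin, which holds budding virions to the cell, and is also a marker of plasmacytoid dendritic cells, whose gene Siglech was at 0 in 7 of 9 libraries and at most 0.65. Bst2 stood at 95.3, 115 and 173 in naive, 75.7, 66.0 and 59.99 in Hopx-low and 48.8, 50 and 42.9 in Hopx-high libraries (-0.88 ± 0.23, adjusted p = 0.019; -1.37 ± 0.23, adjusted p = 0.00014). In Hopx-low cells the call was lost for Rtp4 without naive replicate 2 (adjusted p = 0.055), for Samd9l without Hopx-low replicate 1 (adjusted p = 0.061) and for Bst2 without naive replicate 3 or Hopx-low replicate 2 or 3 (adjusted p = 0.052 to 0.14). Ifi35, an interferon-induced leucine zipper gene, stood at 98.9, 117 and 148 in naive, 103, 101 and 113 in Hopx-low and 70.4, 64.5 and 88.7 in Hopx-high libraries. It was called in Hopx-high cells (-0.69 ± 0.21, adjusted p = 0.02; -0.18 ± 0.21, adjusted p = 0.64 in Hopx-low), while the difference of Hopx-high from Hopx-low was not called (-0.51 ± 0.21, adjusted p = 0.28), and lost the call with upper-quartile scaling (adjusted p = 0.089) and without naive replicate 3 or Hopx-high replicate 1 or 2 (adjusted p = 0.063 to 0.11). Trim30a, a brake on inflammatory signalling, and Xaf1, a partner of the apoptosis inhibitor XIAP, were lower in every activated library than in any naive one without passing the test in either comparison (Trim30a -0.99 ± 0.32, adjusted p = 0.057 and -0.85 ± 0.32, adjusted p = 0.056; Xaf1 -1.0 ± 0.35, adjusted p = 0.081 and -0.82 ± 0.35, adjusted p = 0.091). Both were called in Hopx-high cells without Hopx-high replicate 2 (adjusted p = 0.015 and 0.038), and Trim30a in Hopx-low cells without Hopx-low replicate 3 (adjusted p = 0.025).

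The other 4 tested effectors were not called in either comparison. Ifi27l2a, a mitochondrial membrane protein gene, was the one of the 47 with the highest fold change in Hopx-high cells: it stood at 225, 243 and 337 in naive, 367, 253 and 337 in Hopx-low and 464, 320.0 and 372 in Hopx-high libraries (0.53 ± 0.20, adjusted p = 0.058). It was called higher after upper-quartile scaling (0.72 ± 0.20, adjusted p = 0.012), after quantile normalization (0.64), without Lars2 in the totals (0.64), and without naive replicate 3 (0.70) or Hopx-high replicate 2 (0.65). The Ifi27l2a locus overlaps that of Ifi27, so reads there cannot be told apart. Isg20, an RNA exonuclease gene, stood at 28.7, 28.4 and 40.1 in naive, 16.4, 23.2 and 24.0 in Hopx-low and 24.7, 30.3 and 33.9 in Hopx-high libraries, with the Hopx-high and naive libraries intermixed (-0.12 ± 0.29, adjusted p = 0.79). Mx1 and Rsad2, the gene of the antiviral enzyme viperin, were scarce, at 4.44 ± 1.68 and 6.43 ± 2.502 (mean ± SD, n = 3) in naive cells. For both, every activated library was below every naive one. Rsad2 changed by -0.72 ± 0.46 in Hopx-low (adjusted p = 0.37, limma) and -0.98 ± 0.46 in Hopx-high cells (adjusted p = 0.13). Mx1, the classical influenza resistance gene, is annotated as a transcribed pseudogene in this C57BL/6J assembly, and stood at 4.23, 2.87 and 6.22 in naive, 0.591, 1.56 and 2.00 in Hopx-low and 1.13, 2.20 and 1.24 in Hopx-high libraries (-1.19 ± 0.48, adjusted p = 0.13; -1.09 ± 0.48, adjusted p = 0.1).

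**Figure D2:**
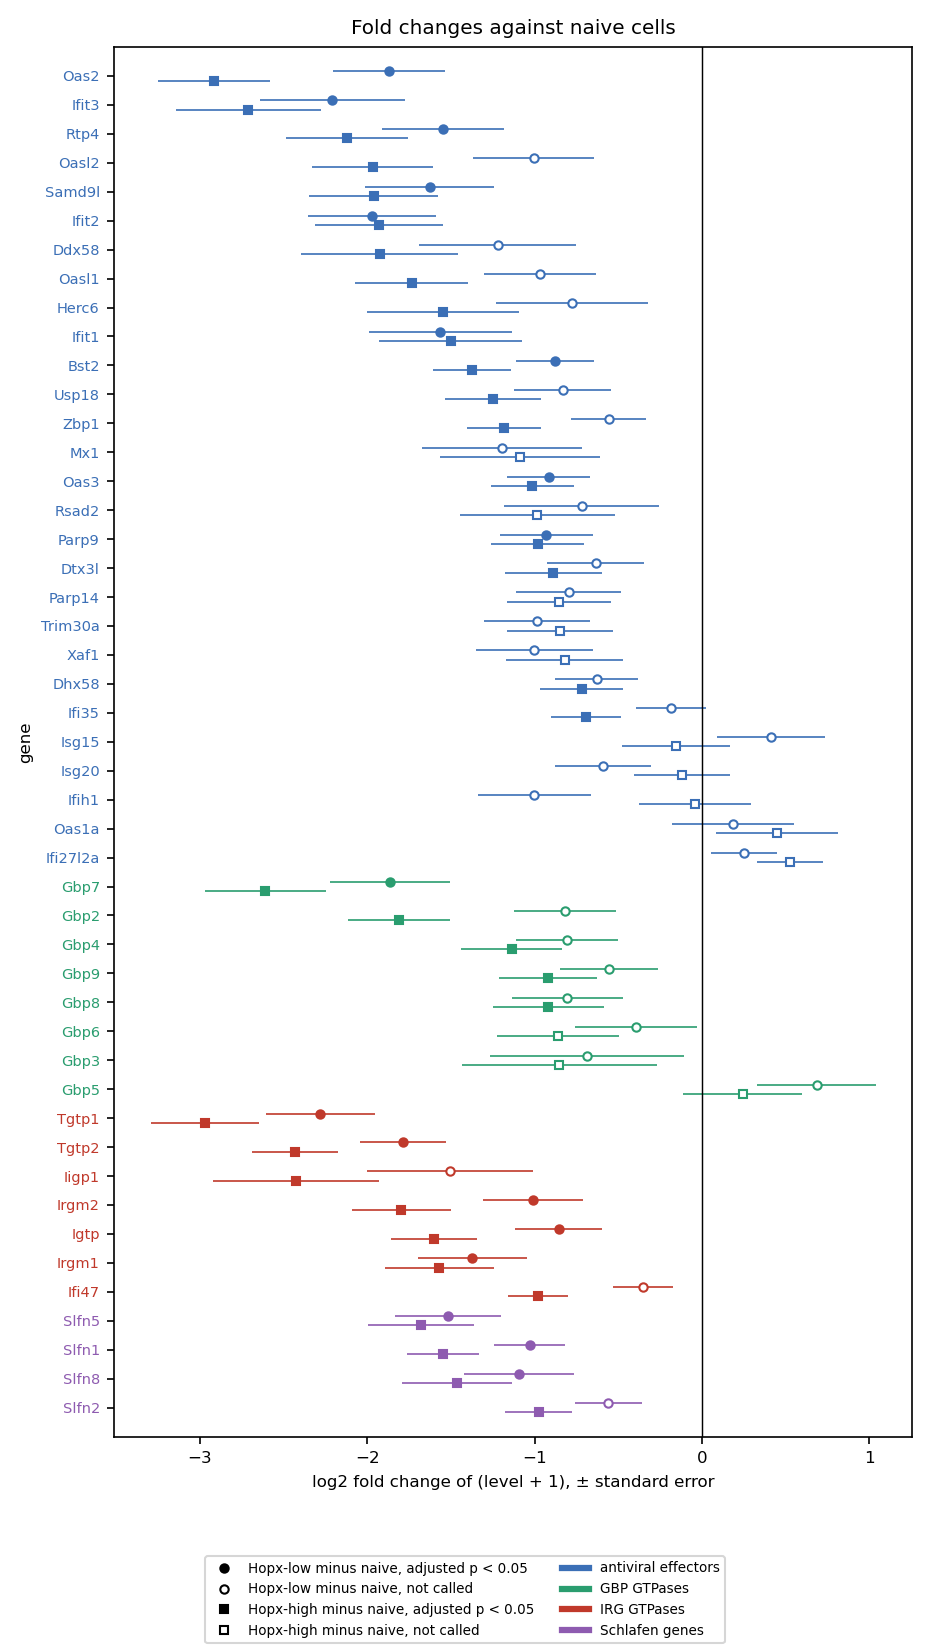
Points give the log2 fold change of each of the 47 tested genes against naive cells, circles for Hopx-low and squares for Hopx-high, with bars of 1 standard error; filled points were called and colours mark the gene classes. All 7 IRG and all 4 Schlafen squares are filled, whereas Isg15, Isg20, Ifih1, Oas1a, Ifi27l2a and Gbp5 lie around 0 or above in Hopx-high cells.

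Not all GBP genes fell. Hopx-low cells had a fall in 1 of 8 and Hopx-high cells in 5 of 8, with medians of -0.74 and -0.92. Among all features 3.64% and 15.1% fell in these comparisons. Gbp7, which stood at 47.2, 49.5 and 34.6 in naive, 14.95, 8.50 and 10.8 in Hopx-low and 4.64, 10.0 and 5.11 in Hopx-high libraries, fell in both groups (-1.87 ± 0.36, adjusted p = 0.0013; -2.61 ± 0.36, adjusted p = 1.1e-05). Gbp2, a GBP that coats vacuoles of intracellular pathogens, stood at 67.4, 58.6 and 62.3 in naive, 29.3, 39.3 and 37.3 in Hopx-low and 11.5, 30.0 and 14.4 in Hopx-high libraries, and was called in Hopx-high cells (-1.81 ± 0.30, adjusted p = 0.00014; -0.82 ± 0.30, adjusted p = 0.11 in Hopx-low). In both genes the activated libraries did not reach the naive ones. Gbp5, whose product promotes inflammasome assembly, was not called: it stood at 16.7, 9.60 and 12.2 in naive, 15.3, 22.8 and 25.6 in Hopx-low and 13.2, 22.2 and 11.5 in Hopx-high libraries, and its fold changes were 0.69 ± 0.35, adjusted p = 0.25 and 0.24 ± 0.35, adjusted p = 0.64. Gbp5 lies next to Gbp7 on chromosome 3, in a cluster of Gbp5, Gbp7, Gbp3 and Gbp2 from 142496934 to 142638008. The windows before the starts of 3 of these neighbours are shown because the genes took different courses; capitals mark GAS-like and ISRE-like matches.
Gbp7: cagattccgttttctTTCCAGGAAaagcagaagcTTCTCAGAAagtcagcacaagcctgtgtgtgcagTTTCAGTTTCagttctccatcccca
Gbp2: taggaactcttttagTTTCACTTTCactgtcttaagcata
Gbp5: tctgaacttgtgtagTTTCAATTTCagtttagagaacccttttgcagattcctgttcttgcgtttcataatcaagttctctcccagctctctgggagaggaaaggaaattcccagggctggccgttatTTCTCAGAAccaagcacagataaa
These are chr3:142530215-142530307, plus strand, chr3:142620589-142620628, plus strand and chr3:142496754-142496905, plus strand. All 3 hold an ISRE-like match, and Gbp7, which fell, and Gbp5, which was not called, also hold GAS-like ones, 1 of the 2 in Gbp5 lying upstream of the stretch shown.

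The other cluster, on chromosome 5 from 105012513 to 105295871, holds Gbp8, Gbp9, Gbp4 and Gbp6. Gbp4 stood at 76.3, 72.5 and 73.9 in naive, 32.2, 50.7 and 45.2 in Hopx-low and 19.0, 56.7 and 33.6 in Hopx-high libraries. Gbp8 stood at 36.5, 33.6 and 32.6 in naive, 17.6, 21.2 and 18.8 in Hopx-low and 10.6, 30.6 and 16.7 in Hopx-high libraries. Gbp9 stood at 48.9, 56.1 and 34.9 in naive, 26.5, 29.7 and 37.1 in Hopx-low and 18.7, 34.4 and 20.7 in Hopx-high libraries. Hopx-high replicate 2 was above the other libraries of its group in each of these genes. All 3 were called in Hopx-high cells (-1.14 ± 0.30, adjusted p = 0.0093 for Gbp4; -0.92 ± 0.33, adjusted p = 0.049 for Gbp8; -0.92 ± 0.29, adjusted p = 0.026 for Gbp9) and none in Hopx-low cells, where the values were -0.81, -0.81 and -0.56. With upper-quartile scaling 3 of the 8 GBP genes were called in Hopx-high cells in place of 5. The call of Gbp4 was lost without Hopx-high replicate 1 (adjusted p = 0.075), that of Gbp8 without any 1 of the 6 libraries compared other than Hopx-high replicate 2 (adjusted p = 0.094 to 0.24), and that of Gbp9 without naive replicate 1 or 2 or Hopx-high replicate 1 or 3 (adjusted p = 0.087 to 0.11). Gbp6, which resembles Gbp10 closely enough that reads may be divided between them, stood at 19.2, 12.6 and 15.2 in naive, 11.03, 13.3 and 10.4 in Hopx-low and 5.69, 10.9 and 8.34 in Hopx-high libraries and had a fold change of -0.86 ± 0.36, adjusted p = 0.089; without Hopx-high replicate 2 it was called (adjusted p = 0.049). Gbp3 was scarce, at 4.09, 4.04 and 3.06 in naive, 0, 4.28 and 3.75 in Hopx-low and 3.37, 1.47 and 0.647 in Hopx-high libraries, and its groups overlapped (-0.68 ± 0.58, adjusted p = 0.51 in Hopx-low; -0.85 ± 0.58, adjusted p = 0.29 in Hopx-high).

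The IRG genes fell in 5 of 7 cases in Hopx-low and in 7 of 7 in Hopx-high cells, against 3.64% and 15.1% of all features. Their medians were -1.37 and -1.80. No activated library reached a naive one for any of the 7. Such a gap was seen in 18.2% of all features for Hopx-low and 26% for Hopx-high cells. Tgtp1 and Tgtp2 encode the effector IRG also called Irgb6, which binds vacuoles of parasites. Tgtp1 stood at 121, 127 and 101 in naive, 11.3, 33.2 and 32.2 in Hopx-low and 13.3, 14.4 and 14.1 in Hopx-high libraries. Tgtp2 stood at 111, 136 and 86.3 in naive, 24.8, 34.6 and 34.5 in Hopx-low and 18.2, 18.9 and 21.3 in Hopx-high libraries. Tgtp1 changed by -2.28 ± 0.33 and -2.97 ± 0.33 on the log2 scale (adjusted p = 3.7e-05 and 3.7e-07), the largest falls of the 47 in both comparisons, and Tgtp2 by -1.79 ± 0.26 and -2.43 ± 0.26 (adjusted p = 4.2e-05 and 2.3e-07). They are near-identical copies, so how their reads were divided is uncertain and their calls are not separate results. Iigp1, the effector gene also known as Irga6, was scarcer, at 15.6, 9.56 and 15.6 in naive, 5.54, 4.62 and 2.43 in Hopx-low and 0.841, 4.70 and 0.784 in Hopx-high libraries (-2.42 ± 0.50, adjusted p = 0.0011; -1.51 ± 0.50, adjusted p = 0.064 in Hopx-low).

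The regulatory IRGM genes Irgm1, Irgm2 and Igtp, whose products keep effector GTPases off the membranes of the host, fell in both groups. Igtp stood at 213, 185 and 227 in naive, 66.7, 148 and 151 in Hopx-low and 55.0, 86.1 and 65.7 in Hopx-high libraries. Irgm2 stood at 77.2, 53.0 and 87.5 in naive, 23.4, 42.2 and 42.6 in Hopx-low and 17.6, 26.4 and 16.5 in Hopx-high libraries. In both genes Hopx-low replicate 1 was well below the other Hopx-low libraries and near the Hopx-high ones. Igtp changed by -0.85 ± 0.26, adjusted p = 0.043 in Hopx-low and -1.60 ± 0.26, adjusted p = 8.6e-05 in Hopx-high cells, and Irgm2 by -1.01 ± 0.30, adjusted p = 0.035 and -1.80 ± 0.30, adjusted p = 0.00011. Without Hopx-low replicate 1 the Hopx-low call was lost for Igtp (adjusted p = 0.22), Irgm2 (adjusted p = 0.16) and Irgm1 (adjusted p = 0.055). It was also lost without any 1 naive library for Igtp (adjusted p = 0.061 to 0.13), and without naive replicate 1 or 3 for Irgm2 (adjusted p = 0.14 and 0.15). Irgm1, at 81.1, 81.0 and 67.0 in naive, 19.7, 31.8 and 37.7 in Hopx-low and 19.1, 46.6 and 17.4 in Hopx-high libraries, changed by -1.37 ± 0.33, adjusted p = 0.0085 and -1.57 ± 0.33, adjusted p = 0.0012. Ifi47 stood at 289, 279 and 244 in naive, 187, 236 and 214 in Hopx-low and 155, 137 and 119 in Hopx-high libraries, and was called in Hopx-high cells (-0.98 ± 0.18, adjusted p = 0.00035; -0.35 ± 0.18, adjusted p = 0.24 in Hopx-low).

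Promoter stretches of 4 IRG genes on chromosome 11 are shown because the same arrangement recurs in all of them: a GAS-like match, a gap of 2 bases and an ISRE-like match, both in capitals. Irgm1 is added as an IRG gene without it.
Tgtp1: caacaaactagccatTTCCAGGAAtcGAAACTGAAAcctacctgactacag
Tgtp2: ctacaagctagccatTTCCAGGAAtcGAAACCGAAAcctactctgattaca
Igtp: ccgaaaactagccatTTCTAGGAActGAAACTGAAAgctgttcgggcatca
Irgm2: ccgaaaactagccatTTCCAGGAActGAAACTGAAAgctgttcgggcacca
Irgm1: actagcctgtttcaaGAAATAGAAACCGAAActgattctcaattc
The stretches are chr11:48992299-48992349, minus strand, chr11:49064258-49064308, minus strand, chr11:58199496-58199546, plus strand and chr11:58214887-58214937, plus strand. In each, the ISRE-like match begins 11 bases after the GAS-like one, at 77, 70, 34 and 64 bases before the start. The longest run of bases that all 4 share is 11 bases, ctagccatttc. Compared position by position without gaps, the Igtp and Irgm2 stretches were identical at 49 of 51 bases, those of Tgtp1 and Tgtp2 at 39 of 51. A single inserted or lost base lowers such a count, so these values do not rank the pairs by likeness. Of all 32851 promoter windows of 300 bases in the table, 5 hold this arrangement on either strand, those of these 4 genes and of Gm12185. Irgm1 (chr11:48871421-48871465, minus strand) has a pair of overlapping ISRE-like matches and no GAS-like one, and fell as well. The loci of Irgm1, Tgtp1, Tgtp2 and Ifi47 lie together at 48865245 to 49096987, and those of Igtp and Irgm2 at 58199556 to 58222783.

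The Schlafen genes, neighbours on chromosome 11 from 82951349 to 83122670, fell in 3 of 4 cases in Hopx-low and 4 of 4 in Hopx-high cells, and every activated library was below every naive one. Slfn2, which is needed for T-cell quiescence in the mouse, stood at 609, 587 and 531 in naive, 257, 485 and 475 in Hopx-low and 281, 312 and 285 in Hopx-high libraries. It fell in Hopx-high cells (-0.97 ± 0.20, adjusted p = 0.0011), while in Hopx-low cells, where replicate 1 lay far below the others, the change was -0.56 ± 0.20, adjusted p = 0.095. Slfn1, a growth-inhibitory gene of thymocytes, stood at 284, 286 and 329.7 in naive, 99.8, 159 and 197 in Hopx-low and 109.7, 106 and 91.0 in Hopx-high libraries (-1.03 ± 0.21, adjusted p = 0.0029; -1.55 ± 0.21, adjusted p = 1.2e-05). Slfn5 and Slfn8 encode long Schlafen proteins with a helicase-like part. Slfn5 stood at 135, 70.9 and 115 in naive, 23.8, 33.9 and 54.8 in Hopx-low and 21.7, 44.9 and 32.5 in Hopx-high libraries. Slfn8 stood at 60.1, 59.4 and 48.4 in naive, 21.7, 26.9 and 28.5 in Hopx-low and 15.9, 37.6 and 12.3 in Hopx-high libraries. Slfn5 changed by -1.52 ± 0.32, adjusted p = 0.0028 and -1.68 ± 0.32, adjusted p = 0.00047, and Slfn8 by -1.10 ± 0.33, adjusted p = 0.041 and -1.47 ± 0.33, adjusted p = 0.0024. Slfn8 lost its Hopx-low call without any 1 of the 6 libraries compared (adjusted p = 0.069 to 0.14), and Slfn2 gained one without Hopx-low replicate 2 (adjusted p = 0.048). Slfn8 resembles Slfn9 and Slfn10-ps, so its value is uncertain.

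**Figure D3:**
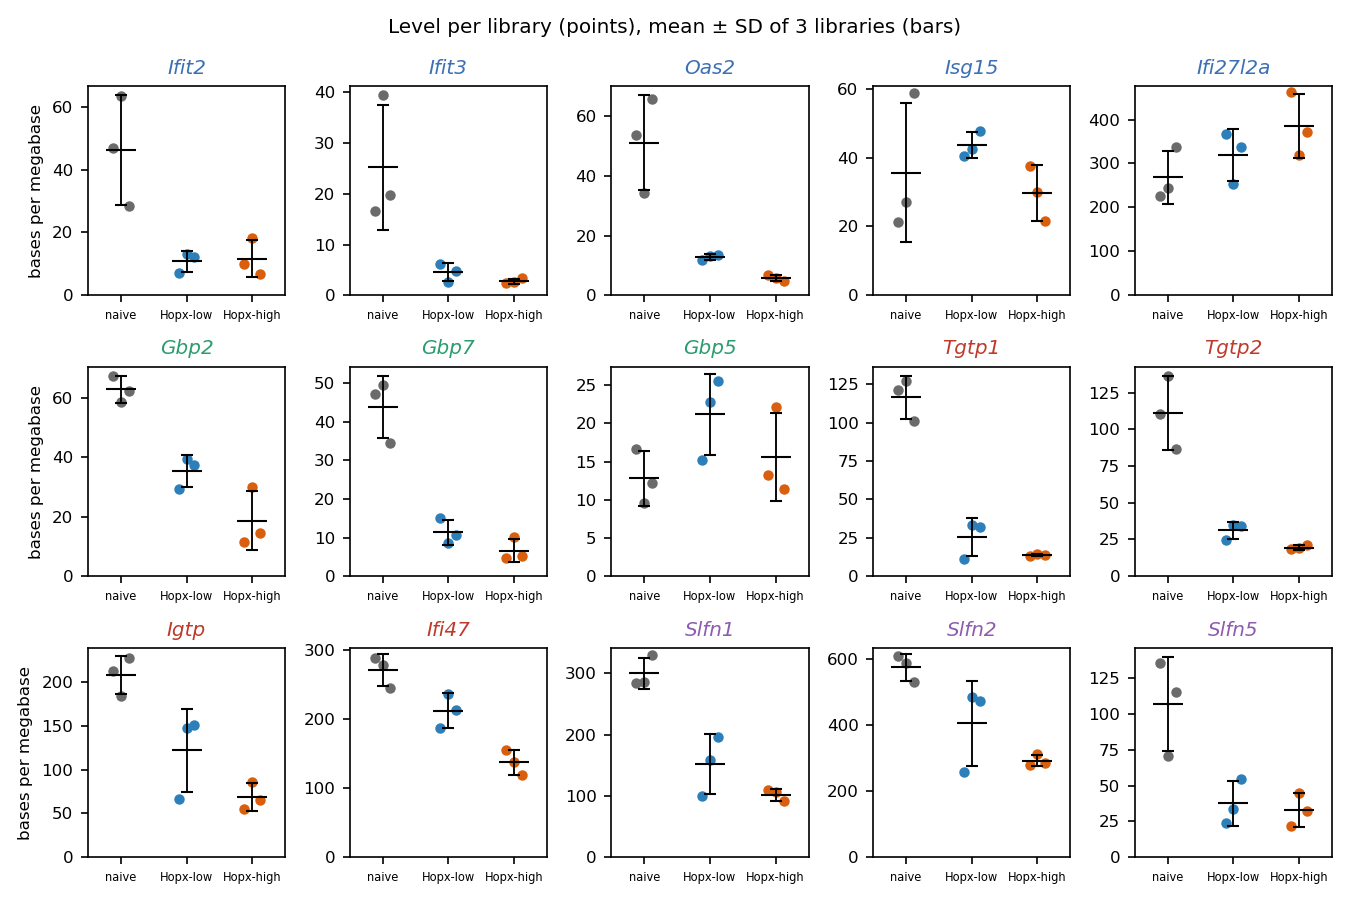
Each panel shows 1 gene: points are the levels of single libraries in bases per megabase, horizontal bars the mean and error bars the SD of 3 libraries, on axes that start at 0. Tgtp1, Oas2 and Gbp7 lie well below the naive points in both activated groups, the means of Ifi47 and Gbp2 are lowest in Hopx-high cells, and Isg15, Ifi27l2a and Gbp5 overlap the naive points.

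Set side by side, the share of tested genes called lower in Hopx-high cells was 18 of 28 for the effectors and sensors, 5 of 8 for the GBPs, 7 of 7 for the IRGs and 4 of 4 for the Schlafen genes. In Hopx-low cells it was 9 of 28, 1 of 8, 5 of 7 and 3 of 4. Over all tested features the share was 15.1% in Hopx-high and 3.64% in Hopx-low cells. Medians in Hopx-high cells ran from -0.92 for the GBPs over -1.05 for the effectors and -1.51 for the Schlafen genes to -1.80 for the IRGs. Within the effectors, the Ifit genes (median -1.93) and the Oas genes (-1.74) lay lowest, the sensors at -0.95 and the Isg15 group at -0.93. Relative to the median of all features these class medians were -0.63, -0.76, -1.22 and -1.51 for GBPs, effectors, Schlafen genes and IRGs, and -0.62, -0.78, -1.21 and -1.5 with upper-quartile scaling. The difference between the classes was not tested. In every activated library the median of the IRG genes lay below those of the other classes, as the plot of class medians by library shows.

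**Figure D4:**
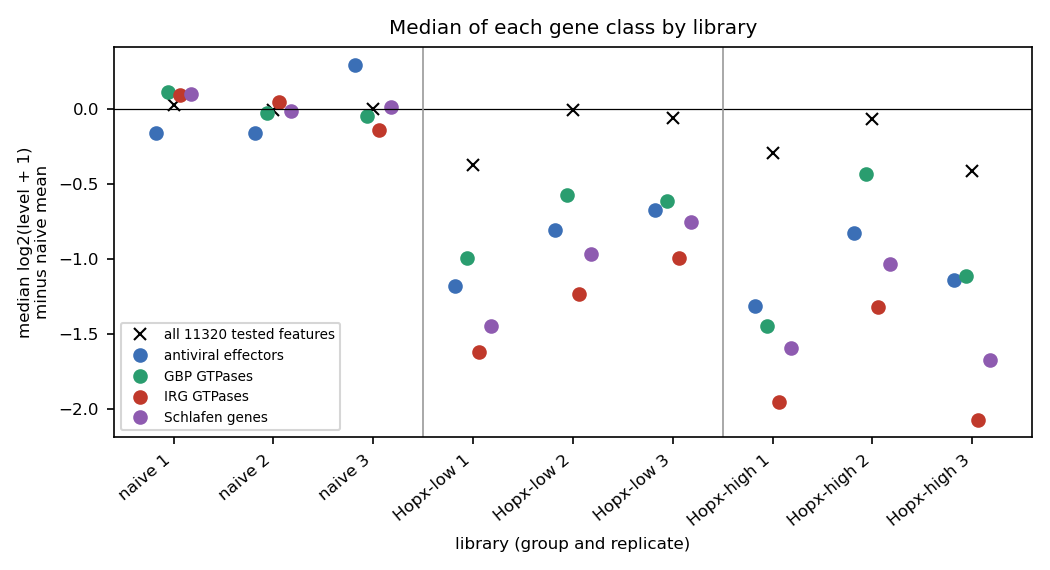
For each library, circles give the median over a gene class of log2(level + 1) minus the naive mean, and crosses the same median over all 11320 tested features. Every class lies below the cross in all 6 activated libraries, from -0.43 for GBPs in Hopx-high replicate 2 to -2.07 for IRGs in Hopx-high replicate 3, where the crosses range from -0.42 to -0.01.

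Hopx-high cells were set against Hopx-low cells directly to ask whether these genes differ with the Hopx level. Of the 47 genes 0 were called by limma in either direction, against 0.919% of all features lower and 1.22% higher (2.14% in all), and the median was -0.42 against -0.10 for all features. At an unadjusted p below 0.05, 13 genes were lower, against 8.29% of features, and 1, Ifih1, was higher, against 4.96%. In 9 genes all Hopx-high libraries were below all Hopx-low ones, against 10.2% of features, and in 2 they were above, against 6.52%. The lowest fold changes were those of Oas2 (-1.05 ± 0.34, adjusted p = 0.13), Gbp2 (-0.99 ± 0.30, adjusted p = 0.11) and Oasl2 (-0.96 ± 0.36, adjusted p = 0.22), and the smallest adjusted p was that of Ifi47 (-0.63 ± 0.18, adjusted p = 0.077). The naive mean was above the Hopx-low mean and that above the Hopx-high mean in 34 of 47 genes, against 39.4% of all tested features. The count of 0 changed without Hopx-low replicate 1: 6 genes were then called lower in Hopx-high cells, Igtp (-1.13, adjusted p = 0.0044), Tgtp1 (-1.17, adjusted p = 0.014), Slfn2 (-0.72, adjusted p = 0.016), Slfn1 (-0.79), Ifi47 (-0.72) and Zbp1 (-0.82). That library was the lowest of its group in 67.1% of all tested features. The share of all features called lower without it is not given here, so the 6 calls have no background to be set against. Without Hopx-high replicate 2, Gbp2 was called (-1.38, adjusted p = 0.006). Without both libraries richest in Lars2, Igtp, Tgtp1 and Slfn2 were called. Igtp stood at 148 and 151 in Hopx-low replicates 2 and 3, above all Hopx-high libraries.

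The signalling genes upstream were called in both directions. Of all features, 3.64% fell and 4.75% rose in Hopx-low cells, and 15.1% fell and 8.41% rose in Hopx-high cells. None of 17 interferon genes was tested, and Ifng had coverage in Hopx-high replicate 2 alone (2.00). Of 5 tested receptor genes, 0 were called in Hopx-low cells, whereas in Hopx-high cells Ifngr1 and Ifngr2 fell (-1.06 ± 0.26, adjusted p = 0.0047; -1.10 ± 0.20, adjusted p = 0.00041) and Ifnar2 rose (0.95 ± 0.23, adjusted p = 0.0043). Of the receptors, Ifngr2 was also called lower in Hopx-high than in Hopx-low cells (-1.01 ± 0.20, adjusted p = 0.0067), with levels of 124, 105 and 145 in naive, 100.5, 131 and 122 in Hopx-low and 54.1, 61.3 and 56.9 in Hopx-high libraries. Ifnar1 stood at 303, 170.0 and 209 in naive, 173, 213 and 196 in Hopx-low and 168, 196 and 133 in Hopx-high libraries, groups that overlapped.

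Of 12 transducers, 1 fell and 1 rose in Hopx-low cells, and 3 fell and 2 rose in Hopx-high cells. Their medians were -0.25 and -0.33, near the -0.16 and -0.29 of all features. Irf7, the master regulator of type I interferon genes, fell in both groups (-1.13 ± 0.20, adjusted p = 0.00067; -1.69 ± 0.20, adjusted p = 1.5e-06). It went from 198, 261 and 307 in naive to 107, 112 and 124 in Hopx-low and 92.1, 67.9 and 72.9 in Hopx-high libraries. Irf8, a factor of myeloid and B cells that effector T cells also use, rose in both (3.16 ± 0.25, adjusted p = 5.3e-09; 3.03 ± 0.25, adjusted p = 4.5e-09). In Hopx-high cells Irf1 (-0.75 ± 0.17, adjusted p = 0.0029) and Jak1 (-0.64 ± 0.22, adjusted p = 0.044) fell and Irf2 rose (0.66 ± 0.20, adjusted p = 0.021). Stat2 and Irf9 were not called: in Hopx-high cells their fold changes were -0.49 ± 0.25, adjusted p = 0.15 and -0.34 ± 0.17, adjusted p = 0.15. Of 6 inhibitors, Socs3, a feedback brake on cytokine receptors, fell in both groups (-2.00 ± 0.26, adjusted p = 1.3e-05; -3.81 ± 0.26, adjusted p = 2.5e-10) and from Hopx-low to Hopx-high (-1.81 ± 0.26, adjusted p = 0.00016), and its relative Socs1 (-1.49 ± 0.38, adjusted p = 0.0067) and Pias1 (-1.01 ± 0.26, adjusted p = 0.0081) fell in Hopx-high cells.

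**Figure D5:**
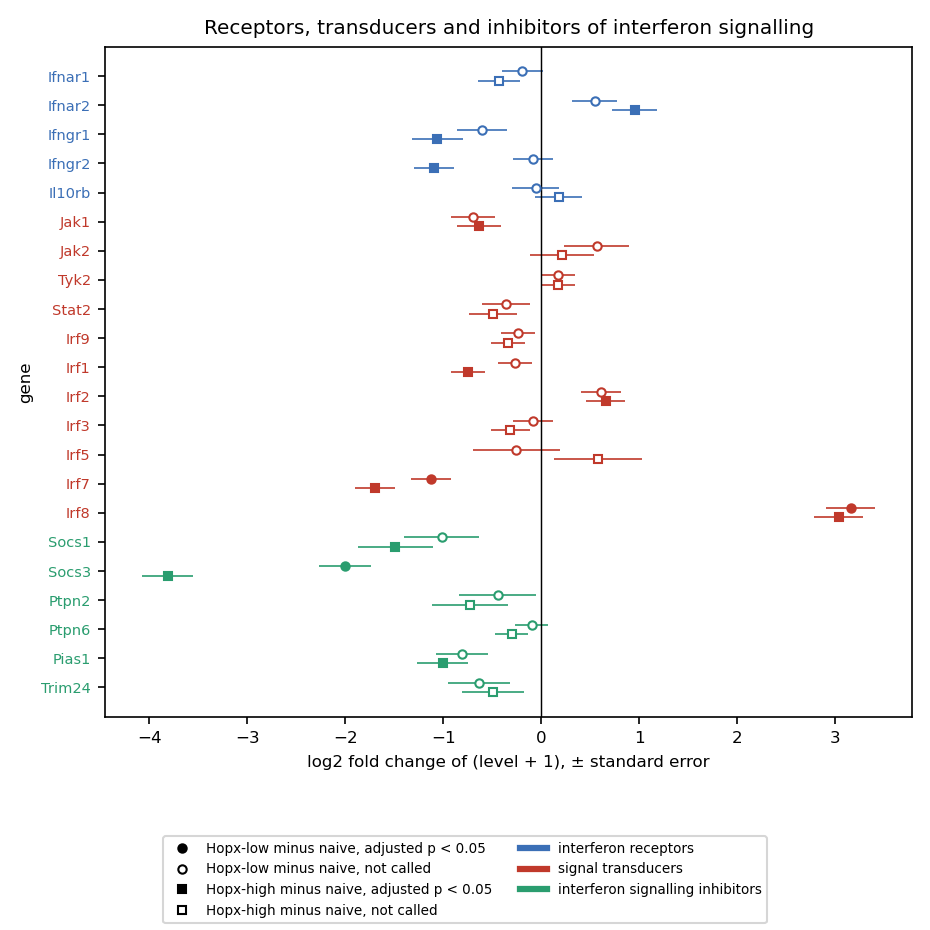
Points give log2 fold changes against naive cells with bars of 1 standard error for receptors, transducers and inhibitors of interferon signalling, circles for Hopx-low and squares for Hopx-high; filled points were called. Stat2 and Irf9 lie a little below 0 with open points, while Irf7 and Socs3 lie far to the left and Irf8 far to the right.

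Of 53 further interferon-stimulated genes that were tested, 8 fell and 2 rose in Hopx-low cells, where 3.64% of all features fell and 4.75% rose. In Hopx-high cells 18 fell and 4 rose, where 15.1% of all features fell and 8.41% rose. The medians of the 53 genes were -0.49 and -0.57, against -0.16 and -0.29 for all features. Ly6a, which encodes Sca-1, fell most clearly (-1.42 ± 0.23, adjusted p = 0.00017; -2.16 ± 0.23, adjusted p = 2.3e-07), with levels of 206, 224 and 333 in naive, 71.6, 123 and 88.5 in Hopx-low and 50.7, 61.7 and 52.9 in Hopx-high libraries. Ms4a6b and Ms4a4b, membrane protein genes of T cells, fell as well (-1.24 ± 0.22, adjusted p = 0.00027; -1.19 ± 0.22, adjusted p = 0.00032 in Hopx-high), whereas their relative Ms4a4c rose in both groups (1.30 ± 0.33, adjusted p = 0.014; 1.19 ± 0.33, adjusted p = 0.012). The 4 that rose in Hopx-high cells were Ms4a4c, Tor3a (1.38 ± 0.27, adjusted p = 0.00085) and the apolipoprotein L genes Apol9a (2.34 ± 0.46, adjusted p = 0.00076) and Apol9b (2.56 ± 0.55, adjusted p = 0.0017). Apol9a and Apol9b are near-identical and scarce, at 0.0765, 0 and 0.532 in naive and 5.41, 4.87 and 4.70 in Hopx-high libraries for Apol9a. Of 13 other tested genes of the same families, 1 fell in Hopx-low cells, the IRG gene Gm12250 (-1.65 ± 0.40, adjusted p = 0.0095), and 4 fell in Hopx-high cells: Gm12250, Gbp11 and the 2 genes 9930111J21Rik1 and 9930111J21Rik2.

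A promoter window was in the RefSeq table for 34 of the 48 genes, from 250 bases before to 50 after the start. At least 1 ISRE-like match (either strand, overlapping matches allowed) was found for 21 of these 34 genes, where 3.99% of all 27025 genes had one. A GAS-like match, which reads the same on both strands, was found for 11 of 34, against 9.55%, and both for 8 of 34, against 0.54%. The ISRE-like match was in the window of 14 of 24 genes that fell in Hopx-high cells and of 7 of 9 that were tested and not called. Those with both motifs were Tgtp1, Tgtp2, Igtp, Irgm2, Gbp7 and Bst2, which fell in Hopx-high cells, and Gbp5 and Oas1a, which were not called. A match describes these letters in this window and is no measure of binding.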

How the data were processed

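The authors deposited 1 signal value per feature and library for 9 total RNA libraries. The submitters' processing notes name mm10 and bedtools; the sources used here do not give an aligner, an annotation, a strand setting or a treatment of multiply matching reads, so that overlapping, antisense and near-identical genes cannot be told apart. Divided by the smallest value of its column, every signal value was whole within 1e-06. The deposited values thus behave as whole numbers plus 1, scaled to a common total. No source states what was counted; they are read here as covered bases, since 123 to 199 features per library held 81 to 100 and only 27 to 60 held 1 to 20, and no count test was used. They were turned back into bases per megabase covered (105 to 329 megabases per library), 1 was added and log2 taken.

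A feature had to reach a level of 1 in 3 or more libraries, which left 11320 of 23219 features for limma 3.58.1 in R 4.3.3 (trend and robust settings, all 9 libraries sharing 1 estimate of the spread, two-sided), with Benjamini-Hochberg adjustment over all of them. The procedure was also run on simulated coverage, which followed the depths of the libraries but not their differing shares of Lars2. No result here rests on it. Tables and figures used Python 3.11.15, pandas 2.3.3, numpy 2.4.6 and matplotlib 3.10.9. All 48 symbols matched RefSeq GRCm38.p6, the mm10 assembly, for positions and promoters.

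The genes, lists and tests were chosen with earlier results of these data known. Every member is named, with values per library for up to 4 called genes of a subgroup and all GBP, IRG and Schlafen genes, and of each pathway list up to 4 genes with the smallest adjusted p; other genes (Stat2, Irf9, Ifnar1, Jak1, Ms4a4c, Ms4a6b, Ms4a4b and the Apol9 genes among them) were named after their values were seen. Alternatives were upper-quartile scaling, quantile normalization, totals without Lars2, the deposited scale, pseudocounts of 0.1 and 5, filters of 0 and 5, limma without trend or robust settings, only the 6 libraries compared, a replicate block, each library left out, both Lars2-rich libraries left out and only replicates 1 and 2. Small RNA libraries were not used, and some pathway genes are not reported here by name. Within-group correlations of log2 levels were 0.951 to 0.977, and no libraries were alike enough to be 1 library deposited more than once.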

Additional observations from a re-analysis of the deposited data

How the results depend on the processing

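Of the 18 genes that fell in Hopx-low cells, 7 were called under all 19 alternatives (Ifit2, Ifit3, Oas2, Gbp7, Tgtp1, Tgtp2 and Slfn5), and of the 34 in Hopx-high cells 20 were. The Hopx-low count was 10 without limma's trend and robust settings, 11 without both libraries richest in Lars2 and 11 with only replicates 1 and 2; leaving out 1 library gave 10 (without Hopx-low replicate 1) to 16. The Hopx-high count was 20 with only replicates 1 and 2 and 27 to 36 with 1 library left out. It was 29 with upper-quartile scaling, 29 with quantile normalization and 32 with totals without Lars2. With the same scalings the Hopx-low count was 18, 20 and 19. Genes called higher in Hopx-high cells numbered 1 (Ifi27l2a) with upper-quartile scaling, quantile normalization or totals without Lars2, and 0 to 2 with 1 library left out (Ifi27l2a and Oas1a without naive replicate 3). Against Hopx-low cells, 1 gene was called lower with totals without Lars2 (Ifi47), 3 without both libraries richest in Lars2, and 0 to 6 with 1 library left out.

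Features called in Hopx-low cells numbered 614 without trend or robust settings, 497 with only replicates 1 and 2 and 576 (without naive replicate 1) to 753 with 1 library left out, against 950. In Hopx-high cells they numbered 1126 with only replicates 1 and 2 and 1710 (without Hopx-high replicate 3) to 3132, with 1754 without naive replicate 1, against 2666. Between Hopx-high and Hopx-low they numbered 143 on the deposited scale, 154 with a pseudocount of 0.1, 159 without trend or robust settings, 71 with only replicates 1 and 2 and 127 (without Hopx-high replicate 3) to 278, with 145 and 133 without Hopx-low replicates 2 and 3, against 242. The causes of these shifts were not tested, and fits with libraries left out also had fewer samples.

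Of uncalled genes, some turned direction. In Hopx-high cells Ifih1 was at 0.14, 0.21 and 0.073 with upper-quartile scaling, quantile normalization and totals without Lars2, Isg15 at 0.034 and 0.091 and Isg20 at 0.072 and 0.14 with the first 2 of these. Isg15 was at 0.052 without both libraries richest in Lars2 and 0.47 with only replicates 1 and 2. With 1 library left out, Ifih1 ranged from -0.21 to 0.066, Isg15 from -0.45 to 0.27, Isg20 from -0.22 to 0.041 and Gbp5 from -0.022 to 0.44. In Hopx-low cells Oas1a ranged from -0.20 to 0.73 and Gbp3 from -1.11 to 0.090, the latter also 0.090 without both libraries richest in Lars2.

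Groups share replicate numbers in the labels, which do not say what a number marks, though replicate 3 carried Xist in each group. Deviations of same-numbered libraries from their group means had r = -0.0889 to 0.0547 between naive and Hopx-low, -0.132 to 0.105 between naive and Hopx-high, and 0.0606 to 0.191 between Hopx-low and Hopx-high. Not every pair was above 0.1, so the numbers were not taken as pairs. With a replicate block, 17, 35 and 0 genes were called lower in the 3 comparisons, and 970, 2677 and 255 features were called. Parp14 was then called in Hopx-high cells (-0.85, adjusted p = 0.036), and Parp9 was not in Hopx-low cells (-0.93, adjusted p = 0.0501). Depth limits the scarce genes: Ifi44 could not be tested, and for Mx1, Rsad2, Gbp3 and Iigp1 a difference that was not called may only have been undetectable.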

Other observations

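A pair of enzyme genes that act beside these effectors was also called lower in 1 comparison each, and is named here after the values were seen. Uba7, whose product activates Isg15 for conjugation, stood at 258, 278 and 333 in naive, 204, 251 and 221 in Hopx-low and 164, 177 and 164 in Hopx-high libraries and was called in Hopx-high cells (-0.77 ± 0.17, adjusted p = 0.0024, limma; -0.36 ± 0.17, adjusted p = 0.22 in Hopx-low). Cmpk2, the neighbour of Rsad2 in the genome, was scarce and fell in Hopx-low cells (-1.44 ± 0.41, adjusted p = 0.031; -0.89 ± 0.41, adjusted p = 0.12 in Hopx-high).

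Within groups, the genes did not scatter evenly over the libraries. Hopx-low replicate 1 was the lowest of its group in 39 of 47 genes, against 67.1% of all tested features, and Hopx-high replicate 2 was the highest of its group in 31 of 47, against 52.5%. The median of the 47 genes relative to naive cells was -1.20 in Hopx-low replicate 1 against -0.78 and -0.70 in replicates 2 and 3, where the median of all features was -0.38, -0.01 and -0.06 in that order. For Hopx-high replicates 1, 2 and 3 it was -1.44, -0.92 and -1.26, where the median of all features was -0.30, -0.07 and -0.42.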
